A study of Mus musculus with 2 samples.

Results

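The classical cadherins and the non-clustered protocadherins are calcium-dependent adhesion proteins of the cell surface. They were examined in total RNA from the hindbrain of B6NCrl mouse embryos at 14.5 days of gestation. Members were the protein-coding genes whose GENCODE symbol is Cdh or Pcdh followed by a number, with or without a final x, leaving out the endothelial cadherin Cdh5. The rule took 34 of 43346 genes in the files, of which 21474 are protein-coding. A single group of 2 libraries was sequenced, replicate 1 and replicate 2, and no treatment or second genotype was compared. The labels describe each library as the hindbrain of a single pup, give the sex as pooled, and place the collections on different days, so replicate and collection date cannot be told apart. Both also carry the same donor identifier, so their origin in separate embryos is known only from the labels for pup and collection day.

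Cadherins bind across the gap between cells through repeated extracellular domains. The type I and type II classical cadherins share a tail that binds beta-catenin and p120-catenin and through them the actin cortex, and each tends to bind cells that carry the same cadherin. In the embryonic hindbrain, neurons that will form different nuclei carry different combinations of type II cadherins, and these combinations help like neurons to gather. Non-clustered protocadherins lack the catenin-binding tail. Their delta-1 subgroup carries a tail motif that binds protein phosphatase 1, and their delta-2 subgroup binds the WAVE complex, a regulator of actin branching.

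Most of the family was expressed. Of the 34 members, 30 had at least 1 TPM (a measure of transcript level scaled by length and library) in both replicates, or 88.2%, beside 13429 of the 21474 protein-coding genes, or 62.5%. There were 16 members with at least 10 TPM in both. The summed level of all members was 802 TPM in replicate 1 and 899 TPM in replicate 2. Pcdh9, Cdh2 and Cdh13 alone held 43.5% of that sum in replicate 1 and 42.8% in replicate 2. The 4 members below the limit were Cdh19, Cdh17, Cdh26 and Cdh16. Cdh5 itself, left out by the rule, stood at 13.1 and 13.8 TPM.

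The libraries held 33727977 and 32450699 expected counts (estimated reads) over genes. Each gene's rounded counts were compared with an exact two-sided binomial test, scaled by these totals, with Benjamini-Hochberg adjustment over all 17664 genes whose mean count reached 10, at a threshold of 0.05. A call therefore sets these 2 libraries apart beyond counting error and says nothing of conditions. Hindbrain transcription factors Hoxa2 (28.3 and 22.7 TPM), Hoxb2 (33.8 and 31.9 TPM) and Gbx2 (33.4 and 33.3 TPM) were present, while the forebrain gene Emx1 was listed at 0 in both. Marker genes of neighbouring tissues differed between the libraries. The 6 choroid plexus markers summed to 1907 TPM in replicate 1 and 1154 TPM in replicate 2, with 4 lower and 1 higher, and the 7 markers of meninges and fibroblasts summed to 773 and 649 TPM, with 6 lower and none higher (5 lower and 1 higher with spike-in scaling). The 6 neuronal markers summed to 4086 and 4417 TPM, with 1 higher and 1 lower (5 higher and none lower with spike-in scaling). The 6 progenitor markers summed to 2316 and 2309 TPM, with 1 higher and 2 lower (4 higher and none lower with spike-in scaling), and the higher gene, Hes5, had 55.1 and 82.1 TPM. The part of these shifts in the members' differences was not tested. In bulk tissue, fewer cells of a type and less RNA per cell cannot be told apart.

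**Figure D1:**
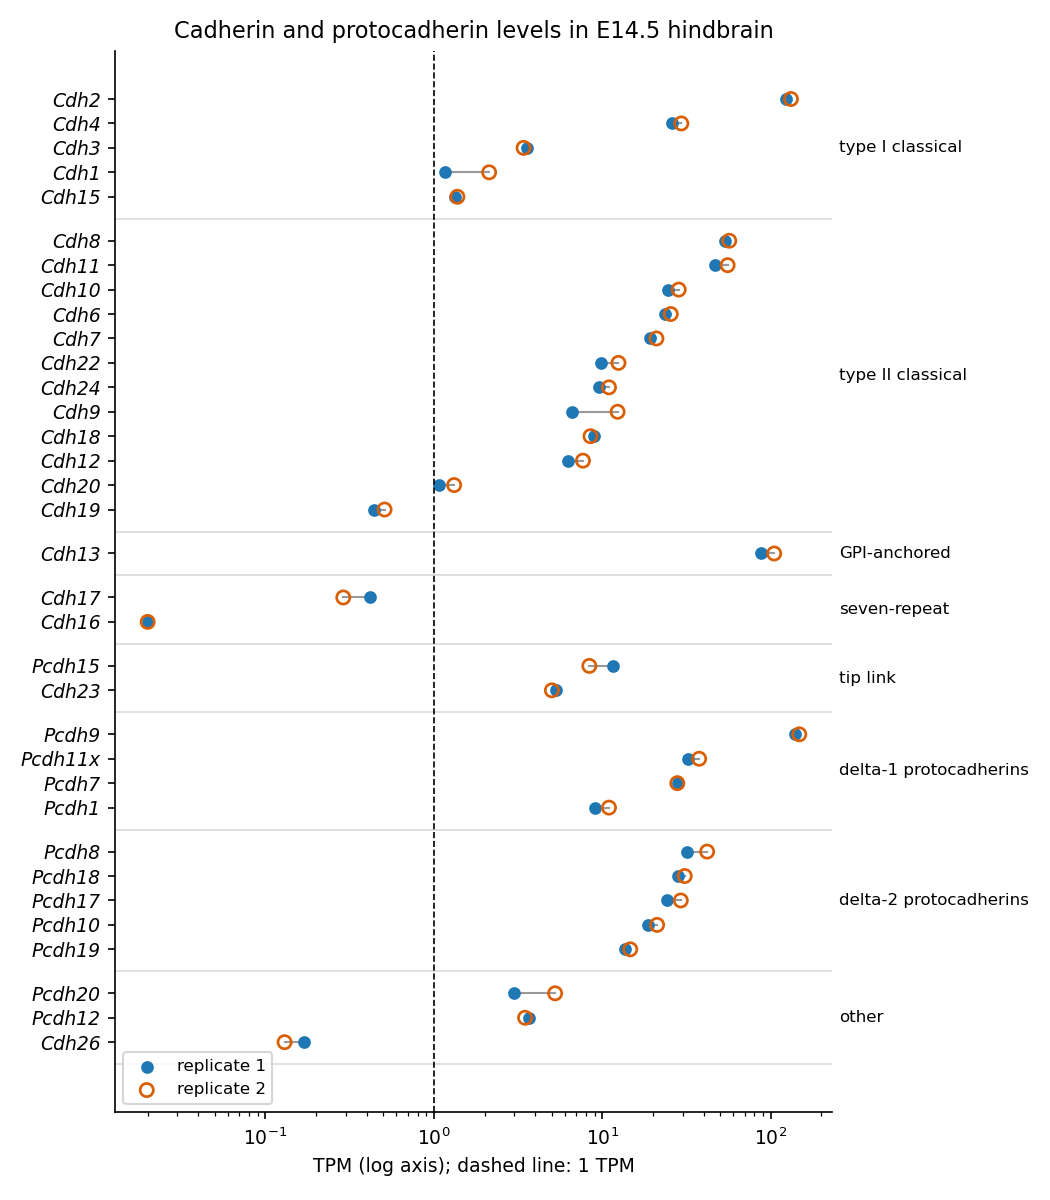
Level of each of the 34 members in TPM (log axis), by structural group. Filled points are replicate 1, open points are replicate 2, and the dashed line marks 1 TPM. The levels run from 0.02 TPM for Cdh16 to 148 TPM for Pcdh9, and the replicates lie close together beside that range.

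The type I cadherins were led by Cdh2. This gene encodes N-cadherin, the main classical cadherin of neural tissue, and stood at 123 TPM in replicate 1 and 132 TPM in replicate 2. Cdh4, which encodes R-cadherin, stood at 25.9 and 29.5 TPM. Cdh3, which encodes P-cadherin, stood at 3.56 and 3.41 TPM. The remaining type I members were near the limit of detection. Cdh15, the M-cadherin of muscle precursors and cerebellar granule cells, stood at 1.33 and 1.38 TPM, where 1 of 6 skeletal muscle markers was detected (sum 6.20 and 4.88 TPM). Cdh1, the E-cadherin of epithelia, stood at 1.16 and 2.13 TPM. The 5 genes together held 19.0% ± 0.39 (SD, n = 2) of the members' summed TPM, most of it from Cdh2.

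Type I cadherins are known for a His-Ala-Val (HAV) triplet in the adhesive face of the first extracellular repeat. Codons for the triplet (CAT or CAC, then GCN, then GTN, in frame) were searched in the annotated coding sequences of all members. They were found in 4 of 5 type I genes (Cdh1, Cdh2, Cdh3 and Cdh4, not Cdh15) and in 0 of 12 type II genes. Among all protein-coding genes, 5.18% had a coding transcript that holds these codons somewhere. The windows of 57 coding bases around the triplet (capitals) show how the surrounding sequence differs between 3 type I members.
Cdh1: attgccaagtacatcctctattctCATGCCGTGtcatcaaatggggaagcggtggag
Cdh3: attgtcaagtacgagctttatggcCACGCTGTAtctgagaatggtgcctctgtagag
Cdh4: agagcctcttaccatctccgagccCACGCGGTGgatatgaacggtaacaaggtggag
The triplet lies in exon 6 of 16 in each of these transcripts, at chr8:106656833-106656841 in Cdh1, chr8:106537083-106537091 in Cdh3 and chr2:179847229-179847237 in Cdh4 (GRCm38, plus strand). Outside type I, Cdh26 was the only member with these codons, far from the start of the protein at codon 449, and it was not detected, with 0.17 and 0.13 TPM.

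Type II cadherins made up the largest group, and 11 of 12 were detected. They held 26.5% ± 0.40 (SD, n = 2) of the members' TPM. Cdh8 was the highest, at 53.5 and 56.7 TPM, followed by Cdh11, a cadherin also known from mesenchyme, at 46.7 and 55.5 TPM. Cdh10 stood at 24.7 and 28.4 TPM, Cdh6 at 23.6 and 25.5 TPM, and Cdh7 at 19.3 and 20.97 TPM. The next gene, Cdh22, known from pituitary and brain, was lower, at 9.79 and 12.5 TPM. Cdh24 had 9.60 and 11.0 TPM, Cdh9 6.63 and 12.3 TPM, Cdh18 8.90 and 8.51 TPM, and Cdh12 6.22 and 7.68 TPM. Cdh20 was just above the limit at 1.08 and 1.32 TPM. Cdh19, known from Schwann cell precursors, was just below it at 0.44 and 0.51 TPM, with 36 and 33 counts, although all 6 neural crest glia markers were detected and summed to 23.3 and 25.8 TPM.

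Several type II genes lie side by side. Cdh6, Cdh9, Cdh10, Cdh12 and Cdh18 lie within 10.4 Mb of chromosome 15, and all 5 were detected. No protein-coding gene lies between Cdh9 and Cdh10, between Cdh8 and Cdh11 on chromosome 8, or between Cdh7 and Cdh19 on chromosome 1. Neighbours could differ widely in level: Cdh7 stood at 19.3 and 20.97 TPM, while Cdh19, 748 kb away, had 0.44 and 0.51 TPM. The type I genes Cdh3 and Cdh1 lie 46.1 kb apart on chromosome 8 with 1 protein-coding gene between them, and both were low.

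Cdh13 and the sensory and epithelial cadherins lack the classical tail. Cdh13 encodes T-cadherin, which is held in the membrane by a GPI anchor and has no cytoplasmic tail. It was the third highest member by TPM, at 87.8 and 105 TPM, or 11.3% ± 0.51 (SD, n = 2) of the members' TPM. By expected counts, which are not divided by length, its share was 6.63%. Its coding transcript Cdh13-201 alone had 53.3 and 59.6 TPM. Pcdh15 and Cdh23 encode the lower and upper part of the tip link of inner ear hair cells. Pcdh15 stood at 11.7 and 8.38 TPM and Cdh23 at 5.32 and 5.02 TPM. Of the 6 hair cell markers, Myo7a and Otof were detected, while Gfi1 and Tmc1 were at most at 0.11 TPM. The 6 summed to 24.4 and 22.2 TPM, with Pou4f3 (0.25 and 1.29 TPM) called higher and Myo7a lower. Cdh17 and Cdh16, cadherins of gut and kidney epithelia, were not detected, at 0.42 and 0.29 TPM for Cdh17 and 0.02 TPM in both for Cdh16, which had a count of 1 in each library.

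The 4 delta-1 protocadherins held 25.5% ± 0.72 (SD, n = 2) of the members' TPM, close to the share of all 12 type II cadherins. Pcdh9 was the highest of all members, at 139 and 148 TPM, above 92.1% of the detected protein-coding genes by its mean. Pcdh11x, on the X chromosome, stood at 32.2 and 37.6 TPM, Pcdh7 at 28.3 and 27.9 TPM, and Pcdh1 at 9.11 and 11.0 TPM.

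The 5 delta-2 protocadherins were each detected and lay within a narrow range. Pcdh8 stood at 31.96 and 41.9 TPM, Pcdh18 at 28.0 and 30.9 TPM, and Pcdh17 at 24.3 and 29.3 TPM. Pcdh10 stood at 18.8 and 21.2 TPM, and Pcdh19, the gene of an X-linked epilepsy, at 13.6 and 14.7 TPM. Together they held 14.9% ± 0.56 (SD, n = 2) of the members' TPM. Outside these groups, Pcdh20 stood at 2.99 and 5.25 TPM. Pcdh12, an endothelial protocadherin, stood at 3.68 and 3.48 TPM, and the 6 endothelial markers summed to 166 and 162 TPM, with 2 called lower and none higher (1 lower with TMM factors, and none in either direction with the spike-in total).

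**Figure D2:**
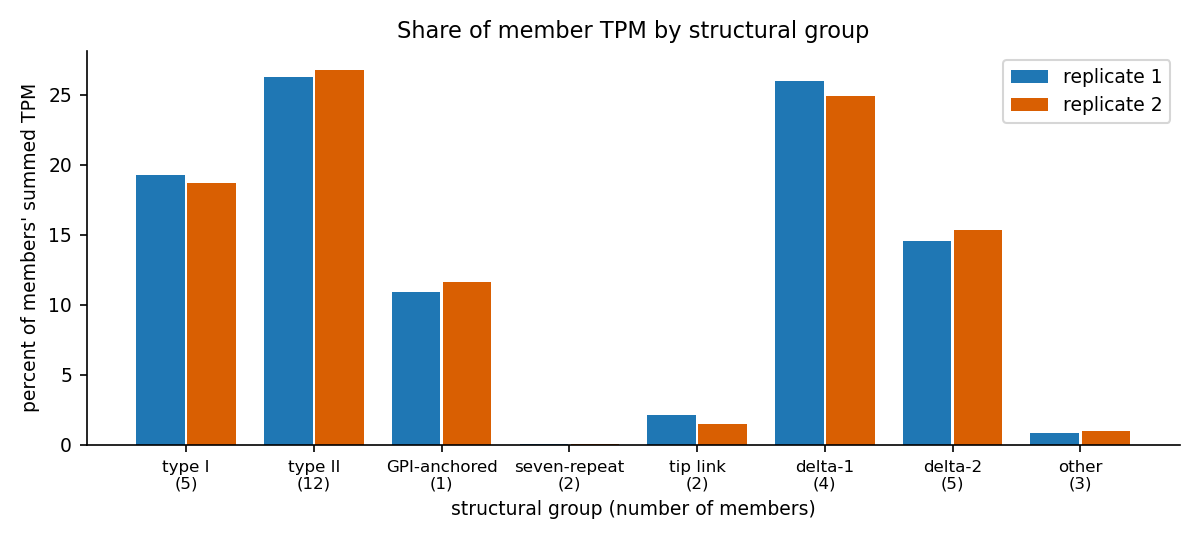
Percent of the members' summed TPM held by each structural group in each replicate, with the number of members in parentheses. Type II cadherins and delta-1 protocadherins hold the largest shares, at 26.2% and 25.97% in replicate 1 and 26.8% and 24.9% in replicate 2.

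Group shares depended on dividing by transcript length. By expected counts, which are not divided by length, delta-2 protocadherins held 21.7%, type II cadherins 21.4% and delta-1 protocadherins 28.1%. Cdh13 held 6.63% by counts, beside 11.3% by TPM. Delta-2 protocadherins and type II cadherins therefore took nearly equal parts of the reads.

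The tail of delta-1 protocadherins varied between transcripts. Codons for the Arg-Val-Thr-Phe (RVTF) motif, through which these tails bind protein phosphatase 1, were searched in frame in all members (CGN, AGA or AGG, then GTN, ACN, and TTT or TTC). They were found in 4 of 4 delta-1 genes and in none of the other 30 members, beside 0.599% of all protein-coding genes. The windows of 60 coding bases come from Pcdh7-203, Pcdh9-204 and Pcdh11x-203, and the capitals mark the motif.
Pcdh7: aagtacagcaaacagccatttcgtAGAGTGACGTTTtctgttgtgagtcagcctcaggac
Pcdh9: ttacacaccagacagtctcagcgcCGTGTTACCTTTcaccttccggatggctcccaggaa
Pcdh11x: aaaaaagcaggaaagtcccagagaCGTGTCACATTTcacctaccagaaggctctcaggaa
The motif lies at chr5:57913165-57913176 (plus strand) in exon 2 of 3 of Pcdh7-203, at chr14:93326860-93326871 (minus strand) in exon 3 of 4 of Pcdh9-204, and at chrX:120726510-120726521 (plus strand) in exon 6 of 8 of Pcdh11x-203. In each it lies beyond the first exon, and transcripts that end earlier lack it. The length of the frame alone does not decide this. Pcdh9-202 and Pcdh9-207, with 1038 and 1195 codons, lack the motif, which lies at codon 1016 of Pcdh9-204.

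Coding transcripts with a complete end were sorted by whether they hold the motif. In Pcdh11x, 99.5% and 99.6% of the TPM of such transcripts came from those with the motif. In Pcdh7 the share was 93.7% and 95.3%, and in Pcdh9 it was 81.5% and 81.4%. Pcdh1 had the lowest share, 34.1% and 35.7%, and its highest transcript, Pcdh1-202 (6.0 and 7.04 TPM), codes for a complete protein of 1038 codons without the motif. Its share with the motif came from models that are not whole. Pcdh1-203 (2.18 and 2.27 TPM) has a frame of 360 codons. The annotated frame of Pcdh1-204 (0.93 and 1.64 TPM) lacks a start codon. The order of the 4 genes was the same in both replicates. In Pcdh9, a further 58.3% and 57.1% of the gene's TPM was assigned to Pcdh9-205 (80.8 and 84.4 TPM), an annotated model whose 3′ end is incomplete, so its tail cannot be read from the model and it was left out of these shares.

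**Figure D3:**
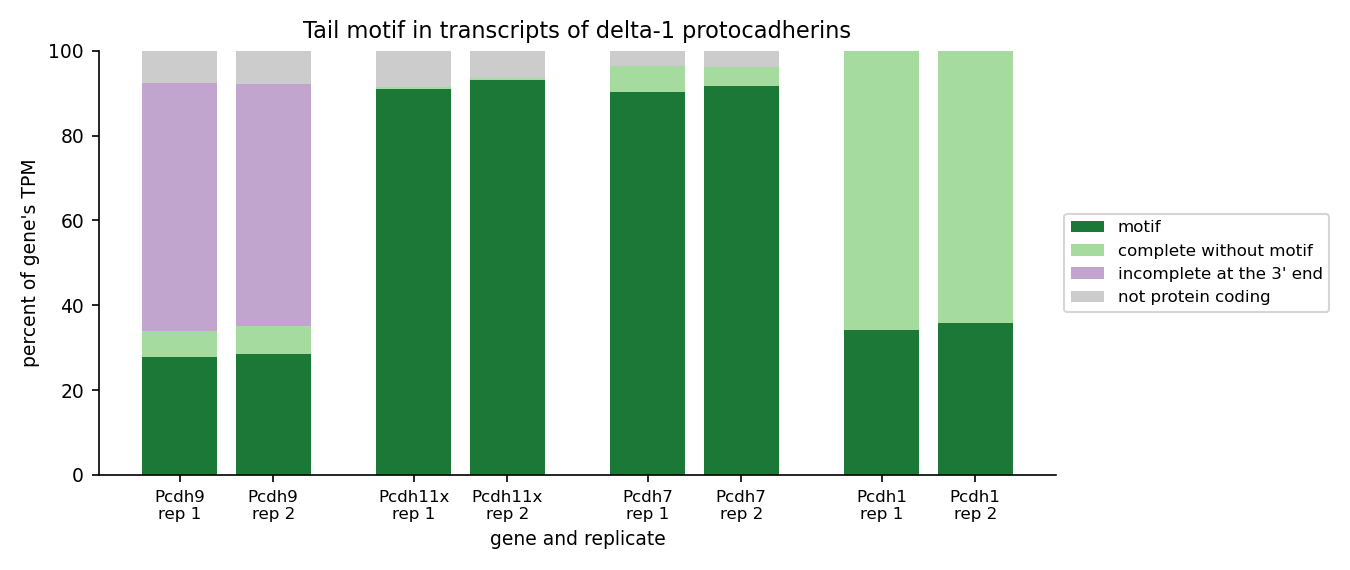
Percent of each delta-1 protocadherin gene's TPM in each replicate, from coding transcripts with the motif, complete coding transcripts without it, models incomplete at the 3′ end, and transcripts not annotated as protein-coding. Pcdh11x and Pcdh7 come mostly from transcripts with the motif, Pcdh1 mostly from complete transcripts without it, and Pcdh9 mostly from an incomplete model.

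The level of a gene did not always mean transcripts for the whole protein. A coding transcript was called near full length where it has at least 80% of the codons of the gene's longest. In 19 of the 30 detected members, over 90% of TPM came from such transcripts in both replicates. In 5 members the share of TPM was under 50% in both, namely Pcdh12, Cdh23, Pcdh15, Cdh7 and Pcdh9. In Pcdh12, retained-intron models held 93.5% and 61.7% of TPM, and in Pcdh15 they held 73.0% and 57.7%. The main transcript of Cdh23 by TPM was the non-coding Cdh23-206, 438 nt long, with 2.25 and 3.06 TPM from 16.3 and 20.3 counts. By expected counts, not divided by length, near-full-length models held larger parts of Cdh23 and Pcdh15. Cdh23-203 and Cdh23-204 had 98.97 and 99.04 of 294 Cdh23 counts in replicate 1. Cdh23-205, Cdh23-203 and Cdh23-201 had 98.2, 43.2 and 32.1 of 225 in replicate 2. Pcdh15-234, with 1677 codons, alone held 51.0% and 59.0% of Pcdh15 counts. For Cdh7, the 3 transcripts with 785 codons (Cdh7-201, Cdh7-202 and Cdh7-209) made up 28.8% and 31.6% of TPM, while short reading frames of at most 76 codons, in Cdh7-204, Cdh7-207 and Cdh7-208, accounted for most of the rest. For Pcdh9 the share was 33.0% and 34.3%, with the incomplete Pcdh9-205, of 873 codons, not counted as near full length.

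**Figure D4:**
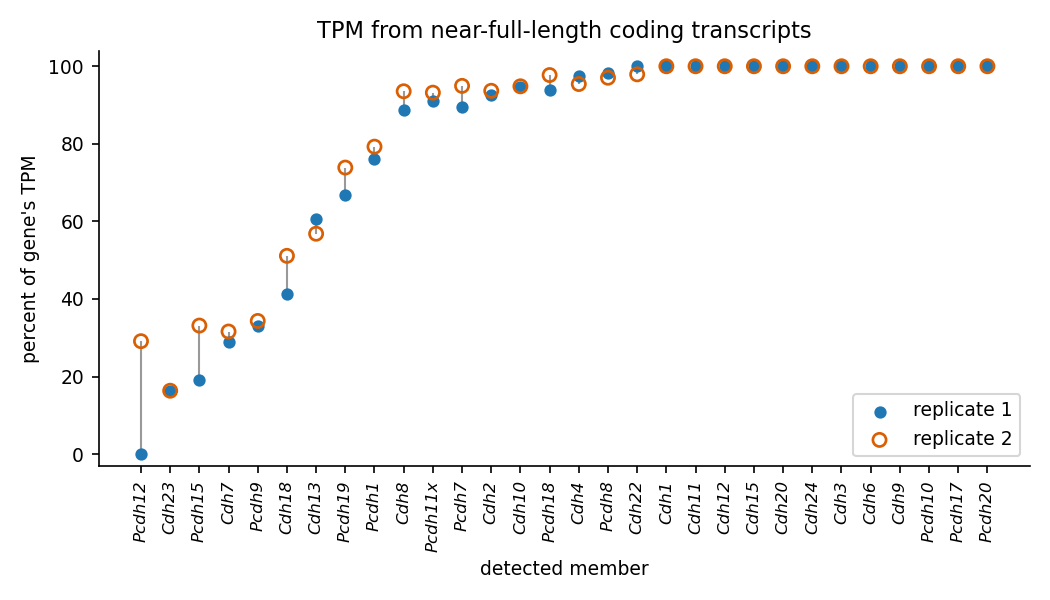
Percent of each detected member's TPM from near-full-length coding transcripts, in replicate 1 (filled) and replicate 2 (open), ordered by the mean. Pcdh12, Cdh23, Pcdh15, Cdh7 and Pcdh9 lie below 50% in both replicates, and 12 members lie at 100% in both. The latter include 9 members with a single quantified transcript, whose share is fixed by the annotation.

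In 9 of the 30 detected members at least 2 transcripts each held 20% of TPM or more in both replicates. Cdh2 was split between Cdh2-202, with 849 codons, at 68.2 and 77 TPM, and Cdh2-201, with 906 codons, at 45.3 and 46.6 TPM. Both hold the HAV triplet. Cdh8 was split between Cdh8-204 (18.1 and 16.8 TPM) and Cdh8-203 (14.9 and 19.3 TPM), and their order by TPM turned between the replicates. By expected counts Cdh8-203 led in both, with 38.7% and 45.0% of the gene. Cdh13 was split between the coding Cdh13-201 (53.3 and 59.6 TPM) and the non-coding Cdh13-207 (23.9 and 32.9 TPM), which is 620 nt long. Pcdh8 was split between Pcdh8-204, with 973 codons (18.2 and 24.1 TPM), and Pcdh8-201, with 1070 codons (13.2 and 16.6 TPM). Pcdh11x was split between Pcdh11x-203 (17.3 and 18.7 TPM) and Pcdh11x-202 (12.0 and 16.3 TPM), both with the tail motif. Pcdh1 was split between Pcdh1-202 and Pcdh1-203 (2.18 and 2.27 TPM), and Pcdh9 between Pcdh9-205 and Pcdh9-204 (32.3 and 36.3 TPM). In Pcdh19, Pcdh19-203 (4.95 and 5.62 TPM) and Pcdh19-202 (4.12 and 5.21 TPM) stood beside Pcdh19-204 (4.53 and 3.83 TPM), a fragment of 335 nt with 22.8 and 17.7 counts. In Cdh7 the main transcript turned from Cdh7-208 to Cdh7-204. In Pcdh15 it turned by TPM from Pcdh15-230, a retained-intron model of 1024 nt, to Pcdh15-234. By expected counts Pcdh15-234 led in both replicates, with 51.0% and 59.0% of the gene.

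Between the 2 libraries, members were mostly a little higher in replicate 2. The TPM of 24 of the 30 detected members was higher there, as was that of 62.6% of the protein-coding genes whose mean reached 1 TPM. The median log2 ratio, taken as log2((TPM + 1 in replicate 2)/(TPM + 1 in replicate 1)), was 0.12 over all 34 members and 0.16 over those whose mean reached 1 TPM, beside 0.058 over the 13622 protein-coding genes that reached the same mean. The count test called 18 of 32 members tested, or 56.3%, beside 34.4% of all genes tested. Of these, 17 were higher in replicate 2, beside 15.7% of all genes called higher, and 1 was lower, beside 18.7% called lower. Calls were more frequent among genes with many counts. Of the 22 members whose mean count reached 500, 15 were called, or 68.2%, beside 44.9% of all genes tested that reached it.

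The differences were small in size. Of the 30 detected members, 27 were within 1.5-fold between replicates by TPM. Asking in addition for 1.5-fold by scaled counts left Cdh9 and Cdh1, 2 of 32 members, beside 5.96% of all genes tested. Asking instead that the deposited credibility intervals of TPM lie apart left 11 members, beside 18.7% of all genes tested.

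Cdh9, a type II cadherin, showed the largest difference of the detected members. Its counts were 442 in replicate 1 and 752 in replicate 2, and its TPM 6.63 and 12.3, with credibility intervals that do not overlap (5.88 to 7.08 and 11.1 to 12.9). It was higher in replicate 2 by 0.80 on the log2(TPM + 1) scale (exact binomial test, adjusted p = 2.32e-20). Its chromosome 15 neighbours differed less, with Cdh10 higher by 0.20 and Cdh12 by 0.27 on that scale, while Cdh18 was at -0.06 and was not called.

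Pcdh20 had counts of 329 and 471, and its log2 ratio was 0.65 (exact binomial test, adjusted p = 3.54e-07). Cdh1 had counts of 107 and 180, and its log2 ratio was 0.54 (exact binomial test, adjusted p = 3.36e-05). Both were higher in replicate 2 with intervals apart, and both are low genes. No epithelial marker was called higher with Cdh1. Of the 7, 3 were detected (Krt18, Krt8 and Epcam). Krt18 and Krt8 were called lower in replicate 2, while Epcam stood at 2.99 and 3.69 TPM and was not called. The sum of all 7 went from 21.9 to 14.6 TPM, and Krt5 was listed at 0 in both.

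All 5 delta-2 protocadherins were called higher in replicate 2 with the total count, beside 15.7% of all genes tested. Their mean counts were all above 500, where 44.9% of all genes tested were called in either direction. The 5 genes were also called higher under the rest of the 4 scalings tried. Those scalings move every gene's ratio toward replicate 2, so they could hardly undo such a call and are no separate support. Pcdh8 led, with 2556 and 3071 counts and a log2 ratio of 0.38 (exact binomial test, adjusted p = 3.63e-15), and Pcdh17 followed with a log2 ratio of 0.26 (exact binomial test, adjusted p = 1.48e-10). Pcdh10, Pcdh18 and Pcdh19 had log2 ratios between 0.10 and 0.16. Of the delta-1 genes, Pcdh11x and Pcdh1 were called higher, with log2 ratios of 0.22 and 0.24. Pcdh9 (10971 and 10800 counts) and Pcdh7 (4691 and 4435 counts) were not called with the total count. Of the type II genes, Cdh8, Cdh11, Cdh10, Cdh22, Cdh9 and Cdh12 were called higher, and so were Cdh4, Cdh1 and Cdh13. Cdh2, the second highest member, had 10602 and 10392 counts and was not called with the total count. Cdh11 was higher, with a log2 ratio of 0.25, while 6 of the 7 meningeal and fibroblast markers were lower.

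Cdh23 was the only member called lower, with 294 and 225 counts (exact binomial test, adjusted p = 0.031). Its TPM was 5.32 and 5.02, and its call was lost with TMM, DESeq2 and spike-in scaling. Pcdh15, its tip link partner, had 11.7 and 8.38 TPM, with intervals apart, but its counts of 803 and 704 did not pass the test (exact binomial test, adjusted p = 0.16).

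The count scaling moved the direction of calls. With TMM factors 20 members were called, beside 35.5% of all genes, with DESeq2 size factors 20, beside 35.1%, and with the spike-in total 23, beside 43.7%. Every member called under these 3 scalings was higher in replicate 2. Pcdh9, Cdh2 and Cdh7, not called with the total count, passed under all 3, with log2 ratios by TMM-scaled counts of 0.07, 0.06 and 0.16. Pcdh7, Cdh6 and Cdh24 passed with the spike-in total alone. Over all genes, 45.7% of calls were higher with the total count, 58.5% with TMM, 55.6% with DESeq2 factors and 80.6% with the spike-in total. With the spike-in total the median ratio of protein-coding genes itself was 0.12 and that of the detected members 0.24. With the total count these were -0.005 and 0.12.

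**Figure D5:**
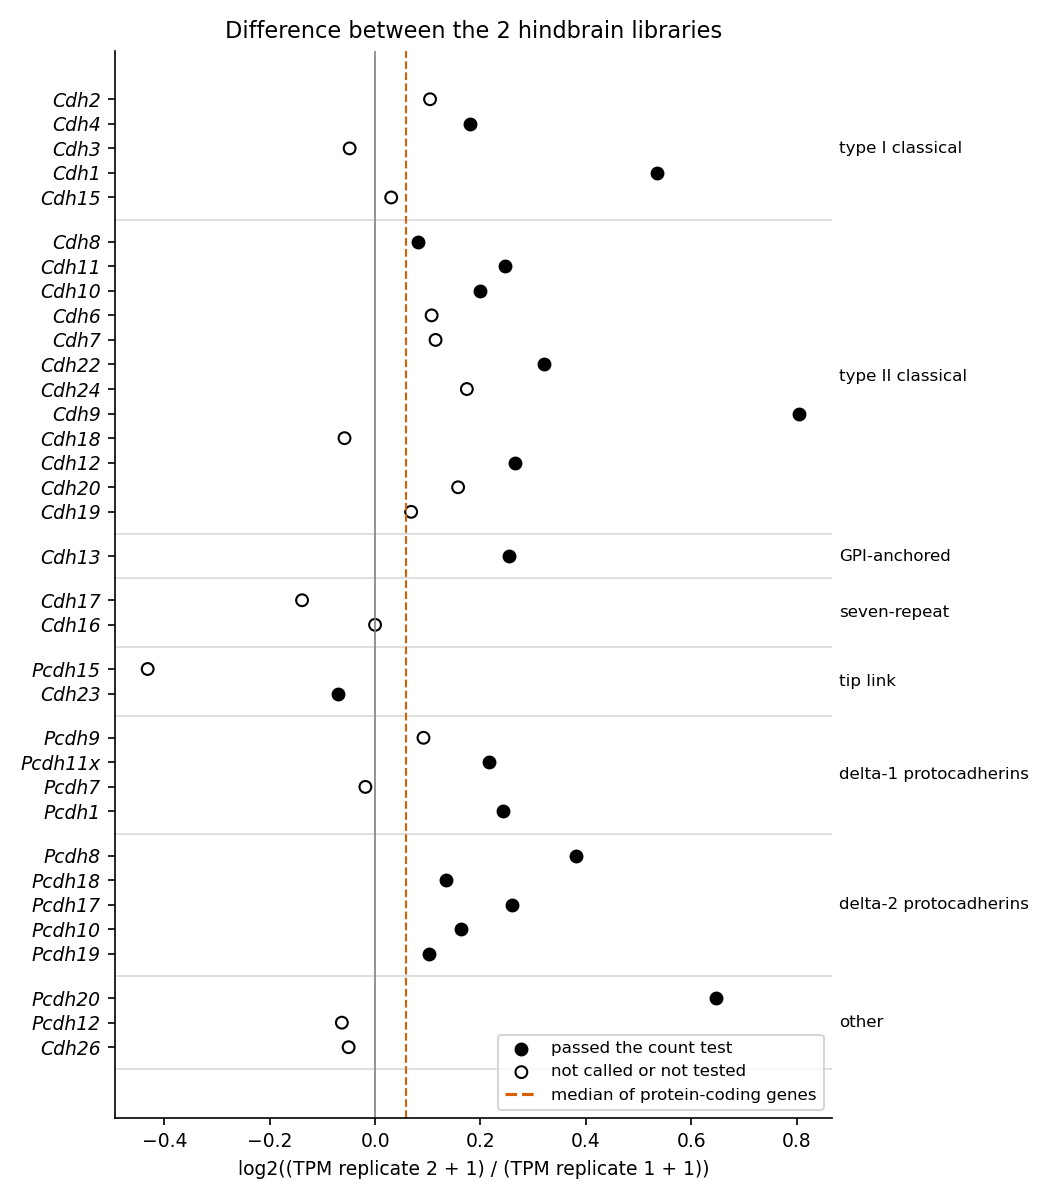
Difference between the libraries, as log2 of TPM + 1 in replicate 2 over that in replicate 1, for each of the 34 members. Filled points passed the count test in either direction, open points did not or were not tested, and the dashed line is the median of protein-coding genes at 0.058. Cdh9 lies farthest to the right at 0.80 and Pcdh15 farthest to the left at -0.43.

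The partners of the classical tail were abundant. All 11 catenins and anchor proteins were detected, led by Ctnnb1, which encodes beta-catenin, at 261 and 301 TPM. Afdn, the actin linker of nectins, stood at 110 and 93.5 TPM, and Ctnna2, the neural alpha-catenin, at 96.3 and 108 TPM. Of the 11, Ctnnb1, Ctnna2, Ctnnd1 (24.4 and 28.1 TPM) and Ctnnd2 (31.8 and 35.6 TPM) were called higher in replicate 2. Afdn, Arvcf (46.4 and 38.8 TPM) and Ctnna3 (3.24 and 2.36 TPM) were called lower. With the spike-in total 7 of the list were called higher and 1 lower. The 4 nectins, which form adhesions beside cadherins, were detected, led by Nectin2 (36.2 and 39.3 TPM), Nectin3 (29.0 and 27.4 TPM) and Nectin1 (15.9 and 15.5 TPM), and none was called with the total count, while 2 were called higher with the spike-in total.

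Of 13 other genes of the cadherin superfamily, 12 were detected, and Fat2 was not, at 0.18 and 0.26 TPM. Clstn1, a calsyntenin of axonal vesicles, stood at 116 and 124 TPM, and Clstn3 at 74.4 and 89.0 TPM, the only gene of the list called higher. Called lower were Celsr2 (40.4 and 32.7 TPM), Fat1 (32.4 and 28.9 TPM), Dchs1 (18.4 and 17.2 TPM), Celsr3 (15.8 and 17.4 TPM), Fat4 (14.4 and 12.7 TPM) and Fat3 (8.58 and 8.30 TPM). Celsr3 was lower by scaled counts although its TPM was higher. Celsr1 (1.72 and 2.03 TPM), Dchs2 (1.63 and 1.84 TPM) and Fat2, of the same families, were not called with the total count. With the spike-in total 4 genes of the list were called higher and 1 lower, so the direction depended on the scaling.

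All 9 WAVE complex genes, whose products the delta-2 tails bind, were detected. Brk1 (211 and 212 TPM), Cyfip2 (92.8 and 101 TPM) and Wasf1 (82.9 and 91.4 TPM) were the highest. Cyfip2, Cyfip1 (34.9 and 39.5 TPM) and Abi1 (48.7 and 54.5 TPM) were called higher and Abi2 (71.4 and 62.0 TPM) lower. The 5 genes of cadherin cleavage were detected, among them Ncstn (87.7 and 85.8 TPM, called lower) and Adam10 (44.4 and 44.7 TPM, not called). Mmp24, a protease that cuts N-cadherin, stood at 14.2 and 16.7 TPM and was called higher. Of 6 repressors of cadherin genes, all were detected, led by Zeb1 (35.5 and 34.4 TPM) and Zeb2 (30.5 and 39.1 TPM). Snai1 (5.96 and 4.44 TPM) was called lower and none higher with the total count. The direction depended on the scaling, with 1 repressor higher and 1 lower with TMM or DESeq2 factors, and 2 higher and none lower with the spike-in total. Of the cleavage genes, none was called lower with TMM factors or the spike-in total.

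The members' start regions differed in CG content. RefSeq start sites (GRCm38.p6) were given for 22 of the 34 members, as 25 windows of 250 bases before the start. The member windows held a median of 10 CG dinucleotides, beside 6 over all 32851 windows, and TATAAA on either strand occurred in 2 of 25 (Pcdh8 and Pcdh15), or 8%, beside 12.4% of all windows. Cdh7 and Pcdh9 gave multiple windows, and some windows lie away from the starts of the transcripts measured. For Cdh22, with the most CG at 30, 0% of TPM came from transcripts that start within 100 bases of the window's end. Pcdh17 and Pcdh20, both on chromosome 14, are shown because they stand near opposite ends of this range and because all of their TPM came from transcripts that start within 100 bases of the window's end. CG dinucleotides are in capitals.
Pcdh17: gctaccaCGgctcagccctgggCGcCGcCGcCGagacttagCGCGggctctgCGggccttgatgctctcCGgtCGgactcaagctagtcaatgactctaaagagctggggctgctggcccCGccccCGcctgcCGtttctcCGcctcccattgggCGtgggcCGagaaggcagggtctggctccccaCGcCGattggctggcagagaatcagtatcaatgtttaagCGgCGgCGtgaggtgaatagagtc
Pcdh20: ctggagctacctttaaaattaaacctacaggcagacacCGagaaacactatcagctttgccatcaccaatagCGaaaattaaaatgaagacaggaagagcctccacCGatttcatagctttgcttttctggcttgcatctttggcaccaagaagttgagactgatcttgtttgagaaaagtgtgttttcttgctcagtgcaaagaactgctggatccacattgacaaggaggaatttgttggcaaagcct
The Pcdh17 window, chr14:84443313-84443562 (plus strand), holds 21 CG, and the gene stood at 24.3 and 29.3 TPM. The Pcdh20 window, chr14:88471397-88471646 (minus strand), holds 3 CG, and the gene stood at 2.99 and 5.25 TPM. Whether level goes with this content was not tested. Cdh24, at 9.60 and 11.0 TPM, had 22 CG in its window. Cdh10, at 24.7 and 28.4 TPM, had 2, but at most 3.53% of its TPM came from transcripts that start within 100 bases of the window's end.

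The genes also differ widely in span, from 4.54 kb for Pcdh8 to 1550 kb for Pcdh15 (GENCODE M21, GRCm38). There were 19 members that span over 100 kb. Among the 3 highest members, Pcdh9 spans 877 kb, Cdh2 220 kb and Cdh13 1041 kb, while Pcdh8, at 31.96 and 41.9 TPM, is the shortest.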

How the data were processed

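Total RNA longer than 200 nt (10 ng per library, with spike-in RNAs) from 2 hindbrains was measured by RNA-seq. Per the labels and file headers, the authors used the mm10 assembly and annotation M4, with a table for each library. Not given in the sources used here were the aligner, the quantifier, their versions and the strand setting. Expected counts, as deposited, estimate reads without normalisation and were rounded for testing. TPM and FPKM, as deposited, include spike-ins in their scale (8.15% and 7.72% of TPM). The bounds of TPM intervals, as deposited, were used as score values, at a level not stated. They need not enclose the TPM given here: Cdh2 had 122.6 TPM in replicate 1, with an upper bound of 121.9. Over all features the files hold 34929425 and 33510896 expected counts, and without molecular identifiers the test covers counting error only.

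Names, coordinates and transcript models came from GENCODE M21 (GRCm38, the assembly of mm10). All 177 member transcripts matched, 91.5% at the same length. Motifs were searched in M21 coding sequences in the annotated frame. No protein table was used here, and the WAVE-binding motif was not searched. Log2 ratios used a pseudocount of 1. On simulated data the test was checked before use. TMM factors came from edgeR 4.0.16 and size factors from DESeq2 1.42.0. Other tools were R 4.3.3, Python 3.11.15 with Biopython 1.88, pandas 2.3.3, matplotlib 3.10.9, numpy 2.4.6 and scipy 1.17.1. Alternatives were other detection limits, pseudocounts, units, scalings and filters, a 1.5-fold minimum, and each replicate alone.

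Members and lists were chosen with earlier results of these data known. Every member is named, with values in both replicates where it had at least 1 TPM in both. Of partner lists, the 3 highest genes and any called are named. Of transcripts, members with at least 2 transcripts of 20% or a main transcript that differs are named. The transcripts of Pcdh12 and Cdh23 were named after their values were seen. A few genes that these rules take are not reported here.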

Additional observations from a re-analysis of the deposited data

How the results depend on the processing

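Detection held between 24 members (at least 5 TPM) and 30, and was 27 with FPKM. The count of members called between the libraries was 14 without a filter on low counts, 18 with a mean of at least 50, 20 with TMM or DESeq2 factors and 23 with the spike-in total. It was 2 with a 1.5-fold minimum and 11 where intervals also had to lie apart, both stricter by construction. Of the single members called, Cdh23 alone lost its call with other scalings (log2 ratio by scaled counts -0.29 with TMM, -0.30 with DESeq2 factors and -0.20 with the spike-in total). The rest were higher in replicate 2, and each of these scalings moves all ratios further that way. The median log2 ratio was 0.056 with FPKM and 0.23 with the spike-in total. Scaling by the spike-in total moves the log2 count ratio of every gene by the same amount. The cause of the FPKM value was not tested. By expected counts, not divided by length, type I held 19.8%, type II 21.4%, delta-1 28.1%, delta-2 21.7% and Cdh13 6.63% of the members' total. The median share of the main transcript was 84.2%, 88.7% by expected counts, and between 77.04% and 83.1% in either replicate alone. The share of complete coding delta-1 TPM with the tail motif was 85.4% over the 4 genes, 90.1% by expected counts and 47.0% over all of their transcripts, the last because incomplete and non-coding models then count. The motif alternatives were chosen after seeing the data. Among single members not called, 11 values under other scalings passed the threshold in the same direction, and Pcdh7 turned to a call higher in replicate 2 with the spike-in total (0.10). No paired analysis was possible because both samples belong to a single group. The depth limits the low members most: Cdh16 had a count of 1 in each library, and Cdh26 10 and 7.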
